A study of Homo sapiens with 15 samples.

Results

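The COPI coat genes COPA, COPB1, COPB2, COPE, COPG1, COPG2, COPZ1 and ARCN1, with ARF1 and GBF1, were followed in MDA-MB-231 cells, a human triple-negative breast cancer line, after 6 h in 2D culture with ZJ-101. These 10 genes were chosen by symbol from the 59608 genes of the table, with earlier results of these data known. All 10 had a mean of at least 10 normalized counts, as did 13561 genes in all. ZJ-101 is a truncated, synthetic form of the sponge macrolide superstolide A. The 5 groups were the 0.1% DMSO vehicle and 0.5, 5, 50 and 500 nM ZJ-101, with 3 biological replicates each, all from 1 cell line grown in serum-supplemented DMEM. The labels speak of triplicate dishes and do not say whether the dishes were grown on different days. A normalized count is the number of reads on a gene divided by the DESeq2 size factor of its library. RNA of a culture was measured as a whole, so fewer cells of a kind and less RNA per cell cannot be told apart.

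COPI is the protein coat of vesicles that carry escaped ER proteins, cargo receptors and Golgi enzymes backwards, from the Golgi to the ER and between Golgi cisternae. GBF1 is the exchange factor that loads the small GTPase ARF1 with GTP at the cis-Golgi, and GTP-bound ARF1 recruits the whole preassembled coat, called coatomer, to the membrane. The alpha (COPA), beta-prime (COPB2) and epsilon (COPE) subunits form the outer, cage-like part, in which alpha and beta-prime bind dilysine signals of cargo, while beta (COPB1), gamma (COPG1 or COPG2), delta (ARCN1) and zeta (COPZ1 or COPZ2) form the inner part that resembles the clathrin adaptors. Brefeldin A, to which the study compared ZJ-101, stops this cycle by trapping GBF1 on ARF1. In HeLa cells the study found that brefeldin A redistributed a cis-Golgi marker while ZJ-101 did not, though both made lysosome puncta smaller.

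The promoters of these genes had letters in common that played no part in their choice. All 10 had entries in the RefSeq promoter table (GRCh38.p14), which gives 250 bases before and 50 bases after each start. The core ACGTG, shared by sites of stress-response bZIP factors such as ATF6 and XBP1, was present on either strand in 9 of them, all but COPG2, and in 32.5% of the 10029 tested genes with an entry. The table lists 1 start for most of them but 2 for COPB2 and GBF1 and 3 for ARF1, and the shown windows and positions refer to the first listed start. The 30 bases around the core nearest to it are shown for these 9 genes, in the direction of the gene, with the core in capitals (CACGT where the core lies on the other strand), because the same letters recur in 9 of the 10 promoters.
COPA (chr1:160343226-160343255, minus strand): agagggtcgctgACGTGgaggcgtccgaag
COPB2 (chr3:139389632-139389661, minus strand): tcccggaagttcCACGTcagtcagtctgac
COPE (chr19:18919372-18919401, minus strand): tgcttccggctgACGTGtctttcaggaaga
COPB1 (chr11:14499841-14499870, minus strand): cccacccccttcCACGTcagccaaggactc
COPG1 (chr3:129249586-129249615, plus strand): gagcgctgggcgACGTGgccagtcggggcc
ARCN1 (chr11:118572379-118572408, plus strand): ttccggttgaagACGTGgcttggggccgcc
COPZ1 (chr12:54325126-54325155, plus strand): cttttgcggctcCACGTcggcaccagctgc
ARF1 (chr1:228082682-228082711, plus strand): ccggaggcgctgACGTGgccgccgtcagag
GBF1 (chr10:102245526-102245555, plus strand): gaggctagttacCACGTcagtgagctgaca

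Counting the start as base 1 and the base before it as -1, the core shown began at -2 in COPE, -8 in COPG1, -14 in ARF1, -18 in ARCN1 and -47 in COPB1. It lay after the start in GBF1, at 7, in COPA and COPZ1, at 8, and in COPB2, at 32. The core shown for COPB2 began at -2 from the second start listed for that gene. The longer UPR element TGACGTGG, which contains the core, was found in COPA, COPB1, COPB2, ARF1 and GBF1, that is in 5 of 10 genes against 1.20% of the tested genes with an entry. The Golgi stress element ACGTGGC, which overlaps both, was found in COPB2, COPG1, ARCN1 and ARF1, 4 of 10 against 5.64%. CCAAT was found in COPE, COPZ1 and GBF1, 3 of 10 against 43.4%. The ER stress element (CCAAT and CCACG set 9 bases apart), ERSE-II (ATTGG and CCACG set 1 base apart) and a heat-shock element of alternating pentamers were found in 0 of the 10, against 0.160%, 0.140% and 0.489%. These matches are a description of letters and no measurement of binding.

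The gamma subunit is made from either of a pair of genes, COPG1 and COPG2, whose RNAs are compared further on. The 150 bases before their starts are therefore set side by side, with the core in capitals.
COPG1 (chr3:129249456-129249605, plus strand): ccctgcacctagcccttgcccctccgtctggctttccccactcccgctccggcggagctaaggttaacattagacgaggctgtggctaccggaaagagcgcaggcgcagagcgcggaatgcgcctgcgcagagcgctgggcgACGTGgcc
COPG2 (chr7:130668749-130668898, minus strand): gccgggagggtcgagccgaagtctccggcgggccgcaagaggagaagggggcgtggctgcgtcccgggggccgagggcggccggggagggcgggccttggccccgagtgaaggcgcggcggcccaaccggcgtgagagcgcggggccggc
The stretch of COPG1 held 67.3% G and C and that of COPG2 80.7%. COPG2 held no ACGTG in its whole window.

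The libraries held 12415519 to 15284762 reads on genes, of which the 10 genes took 27163 to 35990 reads, or 0.208% to 0.239%. The summed level of VIM, CD44, EGFR, CAV1 and MSN, which MDA-MB-231 cells express highly, lay between 54849 and 57063 normalized counts in every library. Singly these genes varied more, above all EGFR, which ranged from 3471 to 8610. VIM had 13433 to 18413.5, CD44 9275 to 12291, CAV1 7328 to 8390 and MSN 15270 to 17908. Of the immune and endothelial markers, CD3E was at 0 in every library, CD68 did not exceed 1.06 and PTPRC did not exceed 3.53, while PECAM1, an adhesion protein of endothelial cells, had 201 to 321. Their sum was 239.8 to 293 in DMSO and 202 to 230.5 at 500 nM. Of the luminal epithelial markers, ESR1, the estrogen receptor, did not exceed 4.30, PGR had 5.37 to 17.3, FOXA1 16.0 to 31.9, CDH1 107 to 206, GATA3 122 to 168 and EPCAM 266 to 320. Their sum was 660 to 694 in DMSO and lower in every library at 0.5 nM (549 to 578), 5 nM (575 to 605) and 500 nM (591 to 636), while at 50 nM (632 to 708) it overlapped. The part of these markers in the results was not tested. The library of replicate 2 at 0.5 nM stood apart. The deviations of the 10 genes from their group means had an SD of 0.130 (log2) in it, against 0.0213 to 0.0723 in the other 14 libraries. It was the lowest of all 15 libraries for ARCN1 and GBF1 and the highest for COPB1 and COPE, and its part in the results is given below by leaving it out.

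Levels in the cells given the DMSO vehicle were compared between genes as normalized counts per kb of the MANE transcript, the representative transcript on which RefSeq and Ensembl agree. ARF1 was by far the most abundant, at 4960 ± 156 (SD, n = 3) in DMSO, above 98.9% of the tested genes with a known length. Of the coat subunits that have a single expressed gene, ARCN1 stood at 1172 ± 18.2, COPB1 at 1136 ± 8.96, COPZ1 at 1008 ± 51.2, COPE at 908 ± 44.6, COPB2 at 862 ± 26.0 and COPA at 715 ± 12.5, so that the highest was 1.64 times the lowest. The subunits of coatomer are present in equal numbers in the complex, and at 500 nM the same ratio of RNA levels was 1.66. These ratios hold for the MANE lengths only. With all annotated exons joined, the same genes ran in DMSO from 151 per kb (COPB2) to 1121 (ARCN1), a ratio of 7.43.

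COPG1 was at 888 ± 20.2 and COPG2 at 114 ± 6.45 per kb, and their sum of 1002 ± 18.5 lay within the range of the other subunits on the MANE lengths. The remaining zeta gene, COPZ2, was nearly silent, at 0 to 4.37 normalized counts per library, below the limit for testing. GBF1 was at 285 ± 6.07 per kb. Among neighbours in this order, the libraries of COPE and COPG1, and those of COPG1 and COPB2, overlapped, and the other neighbours were separate. The order holds for these transcript lengths. With all annotated exons joined, COPG1 moved up to the fourth place, COPA passed COPB2, and COPG2 passed GBF1.

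**Figure D1:**
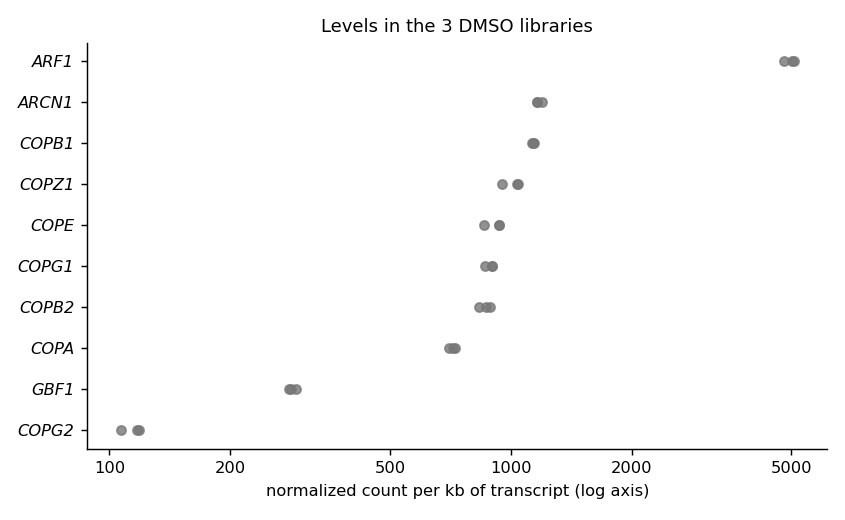
Normalized count per kb of transcript in the 3 DMSO libraries (log horizontal axis), 1 point per library and 1 line per gene. ARF1 lies far to the right, the coat genes COPA to ARCN1 have means between 715 and 1172, and GBF1 and COPG2 to the left.

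Against DMSO, 6 of the 10 genes fell at 500 nM (COPA, COPB1, COPB2, COPG1, ARCN1 and ARF1) and 0 rose (limma, adjusted p under 0.05 over all 13561 genes). edgeR and DESeq2 called 6 as well. The count was 3 (COPB2, COPG1 and ARCN1) with no filter on low genes and without DMSO replicate 1 or 2 or replicate 2 at 500 nM. It was 4 without replicate 1 at 500 nM, with COPA as the further gene. Without DMSO replicate 3 or replicate 3 at 500 nM it was also 4, with ARF1 instead. In the main fit 10.1% of all tested genes fell and 7.69% rose at this dose. With no filter 1152 of 31620 genes fell, against 1366 of 13561 in the main fit. Most of the 10 genes were highly expressed. Per kb in DMSO, all but GBF1 (above 71.0%) and COPG2 (above 48.1%) exceeded at least 87.8% of the tested genes with a known length. The share that fell among genes of like level is not given here. The changes were small. The largest was that of COPG1, to 77.5% of its level in DMSO, and the median over the 10 genes was -0.14 on the log2 scale, beside 0.00 for all tested genes. The 3 libraries lay below all DMSO libraries for 7 of the 10 genes, the 6 named and COPE, against 19.6% of the tested genes. At 50 nM 2 of the 10 fell, COPA and COPG1, against 3.71% of the tested genes, and the 50 nM libraries were all lower for 6 genes, against 13.2%. The count at 50 nM was 1 (COPG1) in 14 of 26 alternatives, namely with no filter, with the same total per library, without any 1 library of DMSO, 5 nM or 50 nM, and without replicate 1 at 0.5 nM or replicate 2 or 3 at 500 nM. It was 4 without the 0.5 nM library of replicate 2 and with the 6 libraries of DMSO and 50 nM alone. After a spline correction for the GC content and length of transcripts it was 5. The number of all tested genes that fell at 50 nM moved as well. It was 653 of 13561 with the 6 libraries alone and 688 of 12719 after the correction, against 503 of 13561 in the main fit. For the fit without the 0.5 nM library of replicate 2 this number is not given here. The count of 4 in that fit therefore has no share of all genes beside it. At 0.5 and 5 nM 0 of the 10 genes passed (limma), where 1.17% and 2.18% of the tested genes passed in either direction. An unadjusted p under 0.05 was reached by 3 of the 10 at 0.5 nM and by 1 at 5 nM. The share of all tested genes under this unadjusted limit is not given here, so these counts show neither an excess nor a lack. edgeR and DESeq2 also called 0 of the 10 at both doses.

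**Figure D2:**
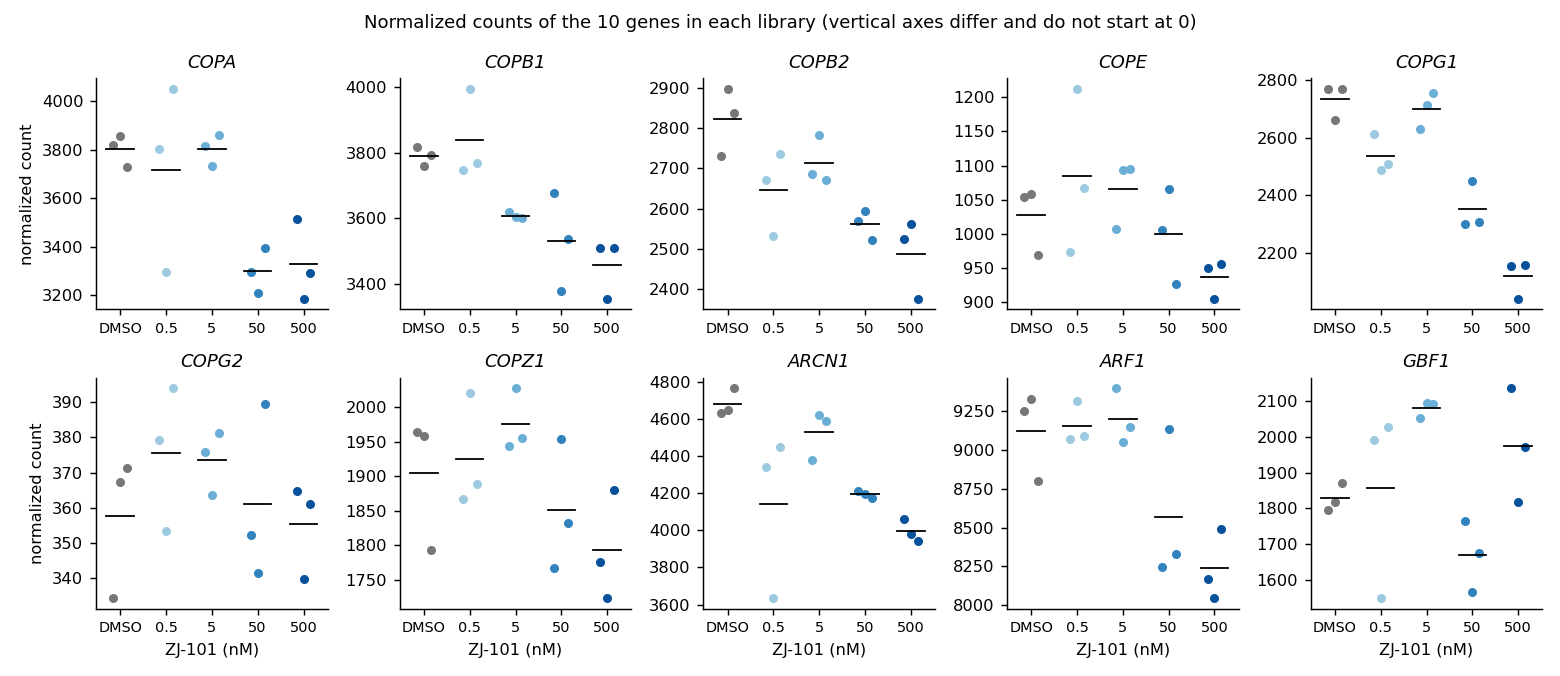
Normalized count of each of the 10 genes (vertical axis, different for each gene and not starting at 0) by ZJ-101 dose in nM, with 1 point per library and a line at the mean of the 3 libraries. The means lie lowest at 500 nM, except those of COPA and GBF1, which lie lowest at 50 nM. COPG2 stays between 334 and 394, and GBF1 is high at 5 nM, low at 50 nM and high again at 500 nM.

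COPG1 (chr3:129249606-129277773, plus strand, 24 exons), the main gamma subunit, showed the clearest change. Its normalized counts were 2769, 2662 and 2769.7 in DMSO and 2614, 2487 and 2509.9 at 0.5 nM. They were 2630.1, 2712 and 2756 at 5 nM, 2302, 2449 and 2307 at 50 nM, and 2156, 2040.0 and 2159 at 500 nM. All libraries at 50 nM lay below all DMSO libraries, and all libraries at 500 nM lay below all at 50 nM. The log2 fold change was -0.22 ± 0.042 (SE) at 50 nM, with an adjusted p of 0.00275 (limma), and -0.37 ± 0.042 at 500 nM, with an adjusted p of 3.93e-06 (limma). Both calls held under every alternative tried. From 5 to 50 nM it fell by 0.20 on the log2 scale (adjusted p = 0.0077, limma). The step from 50 to 500 nM had a value of -0.15 and did not pass (adjusted p = 0.0733, limma), but passed without the 0.5 nM library of replicate 2 (adjusted p = 0.027) and after the correction for length and GC content (adjusted p = 0.017).

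COPG2 (chr7:130506238-130668748, minus strand, 24 exons), the other gamma gene, had 334, 367 and 371 normalized counts in DMSO and 365, 339.8 and 361 at 500 nM, and the groups overlapped. Its log2 fold change at 500 nM was -0.01, with a 95% interval of -0.16 to 0.14 (adjusted p = 0.953, limma). Of its exon bases 14.2% lay in other genes, the largest share in MEST on the other strand, and without a stated strand setting such reads cannot be told apart. The ratio of COPG1 to COPG2, each per kb, was 8.43, 7.38 and 7.59 in the DMSO libraries and 6.02, 6.11 and 6.08 at 500 nM. The mean ratio of 6.07 ± 0.0499 at 500 nM was 22.2% below that of 7.80 ± 0.554 in DMSO, with no overlap between the libraries (exact permutation test, 2-sided p = 0.1, the smallest that 3 against 3 libraries allow). COPG2 made up 11.4% ± 0.697 of the gamma RNA per kb in DMSO and 14.1% ± 0.100 at 500 nM. The ratio was also below that of DMSO in every library at 0.5 and 50 nM but overlapped it at 5 nM.

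ARCN1 (chr11:118572390-118603033, plus strand, 10 exons), the delta subunit, had 4633, 4644 and 4764 normalized counts in DMSO and 4338, 3634 and 4447 at 0.5 nM. It had 4377, 4621 and 4588 at 5 nM, 4209, 4195 and 4176 at 50 nM, and 4061, 3979 and 3943 at 500 nM. Every library of every dose lay below the lowest DMSO library. At 500 nM the log2 fold change was -0.23 ± 0.056 (adjusted p = 0.00725, limma), a call that held under every alternative. At 50 nM the value was -0.16 (adjusted p = 0.117, limma), and it passed without the 0.5 nM library of replicate 2 (adjusted p = 0.003), with the 6 libraries of DMSO and 50 nM alone (0.011) and after the correction for length and GC content (0.041). At 0.5 nM the value was -0.18 (adjusted p = 0.13, limma), and it was -0.09 without replicate 2 of that dose, while without replicate 3 it passed (adjusted p = 0.032).

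COPB1 (chr11:14443440-14500027, minus strand, 22 exons), the beta subunit, went from 3818, 3758 and 3791 normalized counts in DMSO to 3509, 3355 and 3511 at 500 nM. These groups did not overlap, and the log2 fold change was -0.13 ± 0.041 (adjusted p = 0.0298, limma). The call was lost with no filter on low genes (0.092) and when any 1 of the DMSO libraries was left out (replicates 1 to 3: 0.094, 0.069 and 0.078) or any 1 of the 500 nM libraries (0.053, 0.13 and 0.052). Already at 5 nM its libraries, at 3618, 3604 and 3601, lay below those of DMSO, but the difference of -0.07 did not pass (adjusted p = 0.504, limma). At 5 nM 12.7% of the tested genes had all libraries below DMSO, and of the 10 genes COPB1 and ARCN1 did.

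Of the outer subunits, COPB2 (chr3:139353946-139389736, minus strand, 22 exons), beta-prime, had 2730.1, 2898 and 2839 normalized counts in DMSO, 2570.2, 2595 and 2521 at 50 nM and 2523, 2561 and 2375 at 500 nM. Both doses lay below DMSO in every library. The log2 fold change at 500 nM was -0.18 ± 0.043 (adjusted p = 0.00554, limma) and held under every alternative. At 50 nM it was -0.14 (adjusted p = 0.0671, limma), and it passed without the 0.5 nM library of replicate 2 (0.023), with 6 libraries alone (0.04) and after the correction for length and GC content (0.025). Of the exon bases of COPB2, 34.1% lay in MRPS22 on the opposite strand, a gene of the mitochondrial ribosome.

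COPA (chr1:160288594-160343566, minus strand, 33 exons), the alpha subunit, had 3818, 3857 and 3727 normalized counts in DMSO, 3295, 3209 and 3393 at 50 nM and 3513, 3184 and 3292 at 500 nM. At 0.5 nM its libraries spread from 3293 to 4050.3 and at 5 nM they were 3816, 3733 and 3861, close to DMSO. The step from 5 to 50 nM, from a mean of 3803 to one of 3299, had an adjusted p of 0.0506 (limma) and did not pass. It passed in 9 of 25 alternatives, by edgeR (0.046), DESeq2 (0.017), TMM scaling (0.045), a mean of at least 50 (0.046), the replicate block (0.029) and the correction for length and GC content (0.0034), and without replicate 2 (0.0021) or 3 (0.019) at 0.5 nM or replicate 1 at 500 nM (0.049). The means at 50 and 500 nM differed by less than the SD at 500 nM. The log2 fold change was -0.20 ± 0.059 at 50 nM (adjusted p = 0.0452, limma) and -0.19 ± 0.059 at 500 nM (adjusted p = 0.028, limma). The call at 500 nM was lost with no filter (0.058), without any 1 of the DMSO libraries (replicates 1 to 3: 0.08, 0.095 and 0.053) and without replicate 2 (0.13) or 3 (0.084) at 500 nM. The call at 50 nM was lost in the 14 alternatives named above, with an adjusted p of up to 0.16.

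COPE (chr19:18899514-18919387, minus strand, 10 exons), the epsilon subunit, had 1054, 1058 and 969 normalized counts in DMSO and 949, 904 and 955 at 500 nM. Its 500 nM libraries were all below those of DMSO. The value of -0.13, with a 95% interval of -0.28 to 0.02, was as large as that of COPB1 and did not pass (adjusted p = 0.23, limma). COPZ1 (chr12:54301202-54351846, plus strand, 9 exons), the small zeta subunit, had 1964, 1959 and 1794 in DMSO and 1776, 1723 and 1880.3 at 500 nM. The groups overlapped, and the value of -0.09 (95% interval -0.20 to 0.02) did not pass (adjusted p = 0.29, limma).

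**Figure D3:**
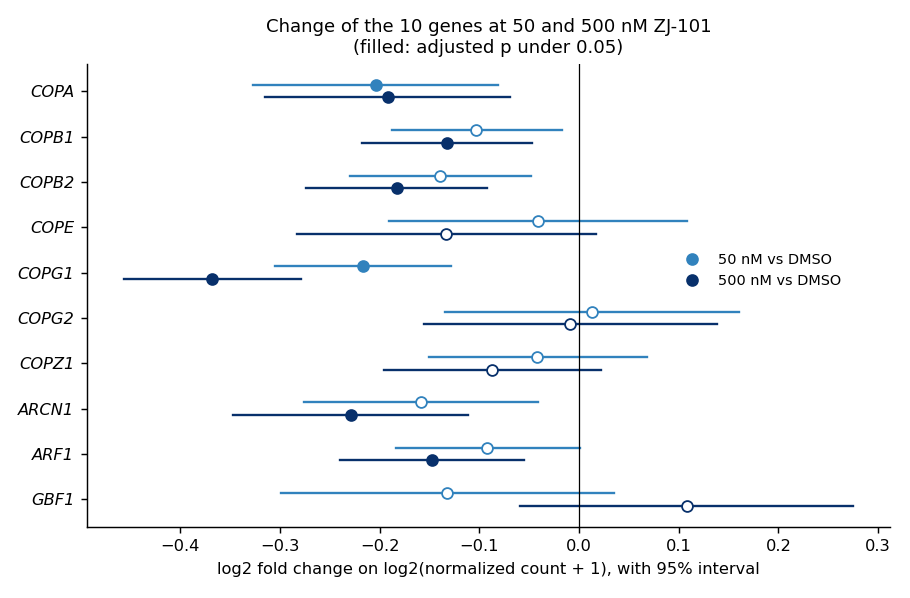
Log2 fold change of the 10 genes against DMSO at 50 nM (light) and 500 nM (dark), with 95% intervals on the horizontal axis and filled points for an adjusted p under 0.05. COPG1 lies farthest to the left at -0.37, and GBF1 is the gene whose values at the 2 doses lie on different sides of 0 by the widest margin, at -0.13 and 0.11.

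Summed in each library, the 8 coat genes had 21120.2, 21204 and 21025 normalized counts in the DMSO libraries. The sum was 20395, 19527 and 20863 at 0.5 nM, 20453, 20937 and 20909 at 5 nM, 19178, 19188 and 19081 at 50 nM, and 18853, 18085 and 18476 at 500 nM. It was below DMSO in every library of every dose, by 4.05% on average at 0.5 nM, 1.66% at 5 nM, 9.32% at 50 nM and 12.5% at 500 nM (exact permutation test, 2-sided p = 0.1 at each dose, the smallest possible). No dose alone can pass 0.05 in such a test. All doses were set against the same DMSO libraries, so the results do not add up as separate tests. Genes with high counts weigh most in this sum. At 0.5 nM COPB1, COPE, COPG2 and COPZ1 had log2 fold changes above 0, and at 5 nM COPA, COPE, COPG2 and COPZ1 did. With ARF1 and GBF1 added, the sum overlapped that of DMSO at 0.5 nM (2.48% lower on average) and 5 nM (0.08% lower). At 50 and 500 nM that sum of 10 genes lay below DMSO in every library.

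ARF1 (chr1:228082708-228099212, plus strand, 5 exons), the GTPase that recruits the coat, had 9253, 9327 and 8798 normalized counts in DMSO and 9399.5, 9049.6 and 9146 at 5 nM. It had 8244, 9139 and 8330.4 at 50 nM and 8171, 8045 and 8494 at 500 nM. The libraries overlapped those of DMSO at 50 nM and no longer did at 500 nM. The log2 fold change at 500 nM was -0.15 ± 0.044 (adjusted p = 0.0244, limma). The call was lost with no filter (0.069), without DMSO replicate 1 (0.091) or 2 (0.11) and without replicate 1 (0.077) or 2 (0.1) at 500 nM. At 50 nM the value of -0.09 did not pass (adjusted p = 0.293, limma) except after the correction for length and GC content (0.046).

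GBF1 (chr10:102245371-102382899, plus strand, 40 exons), the exchange factor of ARF1, moved otherwise. It had 1795, 1818 and 1871 normalized counts in DMSO, 1989, 1551 and 2027 at 0.5 nM and 2053, 2092 and 2091 at 5 nM. It then had 1765, 1569 and 1676 at 50 nM and 2134, 1818 and 1970.4 at 500 nM. All libraries at 5 nM lay above all DMSO libraries, and all at 50 nM lay below them. Of the tested genes 10.5% had all 5 nM libraries above DMSO, and of the 10 genes GBF1 alone did.

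Against DMSO no dose passed for GBF1. The log2 fold changes were 0.01 at 0.5 nM, 0.19 at 5 nM (adjusted p = 0.314, limma), -0.13 at 50 nM (0.442) and 0.11 at 500 nM (0.406). The value at 5 nM passed without the 0.5 nM library of replicate 2 (adjusted p = 0.04) and with the 6 libraries of DMSO and 5 nM alone (0.005). From 5 to 50 nM GBF1 fell by 0.32 on the log2 scale (SE 0.079, adjusted p = 0.0235, limma), from a mean of 2079 ± 22.4 to 1670.1 ± 98.6. That call was lost without any 1 of the 5 nM libraries (replicates 1 to 3: 0.063, 0.081 and 0.084) and without replicate 2 (0.099) or 3 (0.069) at 50 nM. From 50 to 500 nM the value was 0.24 with all libraries higher, and it did not pass (adjusted p = 0.159, limma) except without the 0.5 nM library of replicate 2 (0.0076). Per kb, GBF1 was 5.76% ± 0.302 of ARF1 in DMSO and 6.89% ± 0.541 at 500 nM, higher in every library (exact permutation test, 2-sided p = 0.1, the smallest possible).

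**Figure D4:**
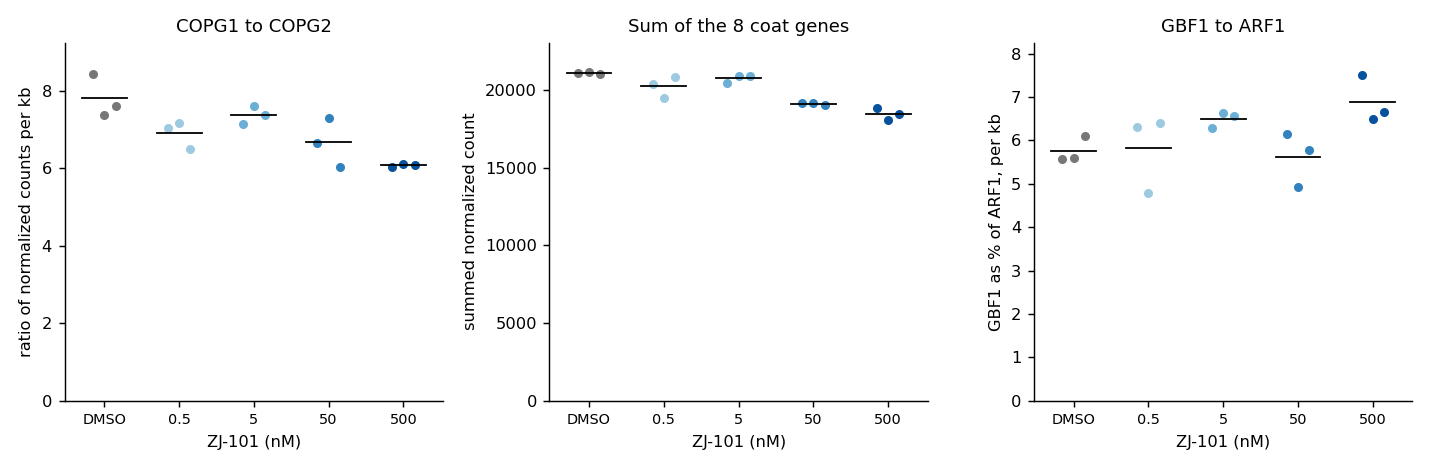
Ratio of COPG1 to COPG2 per kb, summed normalized count of the 8 coat genes, and GBF1 as a percentage of ARF1 per kb (vertical axes, starting at 0) by ZJ-101 dose in nM, with 1 point per library and a line at the mean. The ratio of the gamma genes went from a mean of 7.80 in DMSO to 6.07 at 500 nM, the coat sum was lower by 12.5%, and the GBF1 share was 6.89% at 500 nM against 5.76% in DMSO.

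Between neighbouring doses, 0 of the 10 genes passed from 0.5 to 5 nM (limma), where 0.118% of the tested genes did in either direction, and 4 had an unadjusted p under 0.05. From 5 to 50 nM COPG1 and GBF1 fell, 2 of 10 against 2.39% of the tested genes, and the values of all 10 were below 0. edgeR and DESeq2 called 3 for this step (COPA, COPG1 and GBF1). Without the 0.5 nM library of replicate 2 it was 4, with ARCN1 as the further gene, and without any 1 of the 5 nM libraries or replicate 2 or 3 at 50 nM it was 1 (COPG1). The share of all tested genes that fell under these alternatives to the main fit is not given here. From 50 to 500 nM 0 of the 10 passed (limma) against 2.28% in either direction, with 2 at an unadjusted p under 0.05. edgeR and DESeq2 also called 0 of the 10 from 0.5 to 5 nM and from 50 to 500 nM. For the counts by unadjusted p of these steps, too, the share of all tested genes is not given here. On the rank of the dose, COPA, COPB1, COPB2, COPG1 and ARF1 had a falling slope, 5 of 10 against 9.33% of the tested genes. The call of ARF1 was lost with no filter (0.054) and without replicate 1 (0.058) or 2 (0.071) at 500 nM. ARCN1, with an adjusted p of 0.0599 (limma), passed by edgeR (0.044), DESeq2 (0.035) and TMM scaling, after the correction for length and GC content (0.019) and without the 0.5 nM library of replicate 2 (0.00023). The steepest was that of COPG1, at -0.08 (log2) per step of dose, and GBF1 had a slope of 0.01 (adjusted p = 0.875, limma). All libraries at 0.5 nM lay below DMSO for COPG1 and ARCN1, against 10.7% of the tested genes.

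The partners of these genes were taken from lists by role, also chosen with earlier results of these data known. Their counts at 500 nM stand beside the 10.1% of all tested genes that fell and the 7.69% that rose. Among the other ARF-family GTPases, 3 of 6 fell at 500 nM and 0 rose. ARL1, an ARF-like GTPase of the trans-Golgi, fell by 0.24 on the log2 scale (adjusted p = 0.000323, limma), ARF4, which shares the COPI cycle with ARF1, fell by 0.19, and ARF6, the GTPase of the plasma membrane, fell by 0.13. The call of ARF6 was lost with no filter (0.09) and without DMSO replicate 1 (0.07), 2 (0.06) or 3 (0.09) or replicate 3 at 500 nM (0.14). ARF3, ARF5 and ARFRP1 did not pass. Of the 10 exchange factors, GTPase-activating proteins and GBF1 partners, 4 fell and 0 rose. ACBD3, a Golgi scaffold that brings the lipid kinase PI4KB to the membrane, went from a mean of 939.9 to 669 normalized counts, a log2 fold change of -0.49. ARFGAP3, a GTPase-activating protein that acts on ARF1 in COPI vesicles, fell by 0.34, and RAB1A, a GTPase upstream of GBF1, fell by 0.20. ARFGAP1 and ARFGAP2, with values of -0.02 and -0.01, and the trans-Golgi exchange factors ARFGEF1 and ARFGEF2, with 0.04 and 0.09, did not pass. Neither did RAB1B, the paralog of RAB1A, with -0.055, nor PI4KB, with 0.036.

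Of the 13 cargo receptors and adaptors of COPI vesicles, 8 fell and 0 rose at 500 nM, with a median of -0.34, and 7 fell at 50 nM, where 3.71% of all tested genes did. The p24 proteins, which cycle between the ER and the Golgi and bind COPI through their tails, led the list. TMED7 had 2224, 2221 and 2329 normalized counts in DMSO and 1219, 1362 and 1352 at 500 nM, which is -0.79 on the log2 scale (adjusted p = 3.01e-09, limma). TMED9 went from a mean of 3699.8 to 2171, a change of -0.77, and TMED3 from 1210.2 to 746, a change of -0.70. TMED10, TMED4, TMED5, the KDEL receptor KDELR3 and the Golgi protein GOLPH3, which links glycosyltransferases to the coat, also fell. KDELR1, KDELR2, TMED2, GOLPH3L and SURF4 did not pass, with values from -0.16 to 0.06.

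On the ER side, 0 of the 8 genes of the tether and SNAREs that receive COPI vesicles passed at 500 nM (limma), with a median of -0.02. For so short a list this is near the 10.1% of all tested genes that fell, and the count shows no lack. Of these 8, only SEC22B had an unadjusted p under 0.05 (0.0117), and edgeR and DESeq2 also called 0. The COPII coat, which carries cargo from the ER in the opposite direction, had 6 of 13 genes that fell and 0 that rose. SEC24D, a cargo-binding subunit, went from 1267, 1225 and 1179.9 normalized counts in DMSO to 508, 505 and 552 at 500 nM, which is -1.23 on the log2 scale (adjusted p = 1.31e-10, limma). SEC24A, its paralog, changed by -0.58 and SEC31A, of the outer cage, by -0.29, while SEC24B and SEC24C did not pass. Of the 11 clathrin adaptor genes that also depend on ARF1 (AP-1 and GGA), AP1M2, a mu subunit of AP-1, rose by 0.25 (adjusted p = 0.0324, limma) and 0 fell, so that the share that rose was near that of all tested genes. edgeR called 2 rises, AP1M2 and GGA3, and DESeq2 called AP1M2. The call of AP1M2 was lost with no filter (0.057), without DMSO replicate 1 (0.081), 2 (0.053) or 3 (0.11) and without replicate 1 (0.13) or 3 (0.099) at 500 nM. The median of this list was 0.00, against -0.14 for the 10 genes of the coat, ARF1 and GBF1. The lists were not tested against each other.

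**Figure D5:**
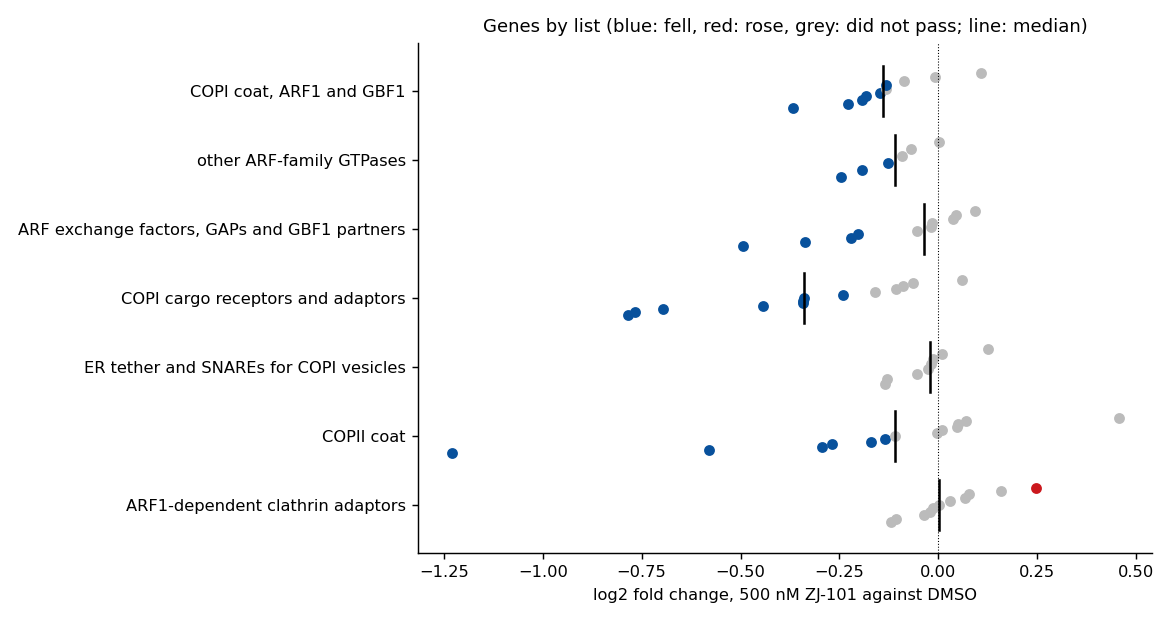
Log2 fold change at 500 nM ZJ-101 against DMSO (horizontal axis) for the 10 genes and for the lists of their partners, with 1 point per gene, blue for genes that fell, red for genes that rose, grey for genes that did not pass, and a line at the median of each list. SEC24D lies farthest to the left at -1.23, and the medians run from -0.34 for the cargo receptors to 0.00 for the clathrin adaptors.

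Likeness of pattern was taken as Pearson's r over the 15 libraries on log2(normalized count + 1), as a description. The genes most like ARF1 were TAGLN2 (r = 0.96), ARFIP2 (0.95), whose product arfaptin binds ARF-family GTPases, and LDHA (0.95), lactate dehydrogenase. The genes most like GBF1 were POGZ (0.95), IPP (0.93) and USP9X (0.93), a deubiquitinase. The mean of the 8 coat genes was most like CEMIP2 (0.97), SEC24D (0.97), CSF1 (0.97), CD276 (0.97) and ITGA5 (0.96), an integrin subunit. Among the 10 genes, r was 0.86 between ARF1 and COPZ1, 0.84 between COPB2 and ARCN1 and 0.83 between ARF1 and COPG1, and it was -0.03 between ARF1 and its exchange factor GBF1. The points share the dose groups, and the 0.5 nM library of replicate 2 is 1 of them.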

How the data were processed

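RNA was taken from 15 dishes of MDA-MB-231 cells, 3 for DMSO and 3 for each dose. The authors sequenced poly-A RNA as paired 150 bp reads, used HISAT2 for alignment to hg38 and htseq-count for gene counts, and scaled the counts by DESeq2 size factors. The deposited values are therefore a signal, counts over size factors, and the strand setting, tool versions and GENCODE release were not given in the sources used here. All columns matched a sample. Division by the smallest step of a library gave back whole reads, to within 4.34e-05.

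The main test was limma 3.58.1 with a variance trend (R 4.3.3) on log2(normalized count + 1), for genes with a mean of at least 10, a single fit of the 5 groups, Benjamini-Hochberg adjustment over 13561 genes and a threshold of 0.05. Fold changes are on that scale. The script was tested on simulated data. Single values were compared by exact permutation. p-values measure the spread between these dishes. The replicate numbers did not pair the libraries. Positions, transcript lengths and overlaps came from GENCODE release 44 (GRCh38), and promoters from RefSeq. The 10 transcripts had no second copy in the genome that covered 50% of them at 90% identity (minimap2 2.31-r1302).

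The members and lists were chosen with earlier results of these data known. Named were the 10 genes, up to 3 rises and 3 falls of each list with the largest change at 500 nM (further list members are named with their counts), and the genes most like ARF1, GBF1 and the mean of the coat. Alternatives were pseudocounts of 0.5 and 5, no filter or a mean of at least 50, a replicate block, TMM or total scaling, edgeR 4.0.16 and DESeq2 1.42.0 on recovered reads, each library left out, and 6 libraries alone. A correction of each library for GC content and transcript length (splines, 12719 genes) was chosen after seeing the data. The 24 h spheroid experiment was not analysed here. Of the genes named by this rule, 1 is not reported here. Precision is limited by 3 libraries per group.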

Additional observations from a re-analysis of the deposited data

How the results depend on the processing

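Replicate numbers did not pair the libraries. Over 30 pairs of the same number, deviations from the group means correlated by -0.085 to 0.096, with 0 pairs over 0.1. With the replicate block, 0, 0, 2 and 6 of the 10 genes passed at 0.5, 5, 50 and 500 nM against 0, 0, 2 and 6 without it, 3 (COPA, COPG1 and GBF1) against 2 passed from 5 to 50 nM, 0 passed between 0.5 and 5 nM or between 50 and 500 nM, and 5 passed by the slope.

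At 500 nM the count of 6 genes became 3 with no filter on low genes, where 1152 of 31620 tested genes fell. It stayed at 6 under the other pseudocounts, the stricter filter, both scalings, edgeR, DESeq2 and the correction for length and GC content. At 50 nM the count of 2 became 1 with no filter and with the same total per library. It became 4 with 6 libraries alone, where 653 of 13561 tested genes fell. After the correction for length and GC content, where 688 of 12719 tested genes fell, it became 5. At 5 nM it became 1 (GBF1) with 6 libraries alone, and from 50 to 500 nM it became 1 (COPG1) after that correction. For these last counts the number of all tested genes that passed is not given here. The cause was not tested.

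Leaving out 1 library at a time gave 0 to 1 genes at 0.5 nM, 0 to 1 at 5 nM, 1 to 4 at 50 nM, 3 to 6 at 500 nM, 1 to 4 for the step between 5 and 50 nM, 0 to 2 for that between 50 and 500 nM, and 4 to 6 by the slope. The shares of all tested genes in these fits are not given here. Fold changes near 0 changed sign. COPE at 50 nM ranged from -0.089 to 0.012, COPG2 from -0.042 to 0.052 at 50 nM and from -0.056 to 0.023 at 500 nM, and GBF1 at 0.5 nM from -0.057 to 0.136. The slope of GBF1 ranged from -0.007 to 0.017 and was -0.002 after the correction for length and GC content. The step of COPA from 50 to 500 nM ranged from -0.027 to 0.044 and was -0.013 after that correction. By the slope, ARF1 lost its call 3 times and ARCN1 gained one 5 times, as given with the slopes. Of 19 further changes of the 10 genes that are not printed, 18 of 491 values under alternatives reversed, all with a size of at most 0.073 (log2).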
